A study of Arabidopsis thaliana with 12 samples.

Results

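Among 6 wild-type (WT) root RNA-seq libraries of *Arabidopsis thaliana*, 3 carried high and 3 carried low levels of the transcripts of photosynthesis, and the genes that followed this division were examined here. The high libraries were WT control 1, WT Al 2 and WT Al 3, and the low libraries were WT control 2, WT control 3 and WT Al 1. They are 6 of the 12 libraries of the series. Both the high and the low libraries therefore mix plants treated with aluminum (Al) and untreated plants. The libraries were selected on the measured FPKM of the photosynthesis genes, so each difference between high and low libraries given here is a description without a test. In the high library nearest to the division, WT control 1, the mean log2(FPKM + 0.5) of 49 photosystem and light-harvesting genes was 3.97, against 2.52 in WT control 2, the nearest low library.

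The study set plants overexpressing *GmNTL4* (OX), a membrane-bound NAC transcription factor gene of soybean driven by the 35S promoter, against WT. Each genotype was given 5 µM AlCl3 (Al) or none (control), which makes 4 groups of 3 libraries, OX Al, OX control, WT Al and WT control. Al-treated seedlings of both genotypes stood in Hoagland solution at 5-fold dilution and pH 4.5 that lacked phosphate. The methods give 48 h of Al and do not describe the medium of the controls, while the labels give 24 h and mark the controls. The labels name roots as the tissue and do not say which transgenic line was used, how many plants a library pools or whether replicates were separate cultures. The 6 OX libraries had no part in the division, and their values are given as an outside view of it.

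In plants, nuclear genes encode most proteins of the thylakoid membrane and of carbon fixation, and light, together with signals from the plastid itself, turns these genes on while chloroplasts form. Roots kept in the dark hold colourless plastids, whereas roots under light can green to some extent. The same transcripts are at their highest in leaf mesophyll.

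Abundance was given as FPKM, fragments mapped per length of transcript and per size of library, and compared as log2(FPKM + 0.5), where 1 unit is a 2-fold change and low genes are understated. Of 25872 genes, 20129 reached 0.5 FPKM in at least 3 of the 6 WT libraries. A gene was counted as higher when every high library lay above every low library and the mean difference was at least 1, and as lower in the mirror case. In all, 330 genes (1.64% of those passing the filter) were higher and 65 (0.323%) were lower. Without the requirement on size, 1295 genes (6.43%) had every high library above every low one and 923 (4.59%) had every high library below. Leaving out WT Al 1 gave 633 higher genes, and leaving out WT Al 2, WT Al 3, WT control 2 or WT Al 1 gave 169, 111, 101 or 160 lower genes.

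Because the treatments are mixed, the same difference can be read within each treatment, as WT control 1 minus WT control 2 and 3, and as WT Al 2 and 3 minus WT Al 1. Among the higher genes, 270 of 330 differed by at least 1 among the controls, 259 did so under Al and 204 did so in both. Among the lower genes the counts were 56, 23 and 16 of 65. Over all 20129 genes passing the filter, 927 were up by at least 1 among the controls and 465 under Al. Downward, the counts were 599 and 111. Most higher genes thus separated the libraries under both treatments. Most lower genes separated WT control 1 from the other controls, but downward differences were more frequent among the controls over the whole table as well. Over all genes passing the filter the median difference was -0.00, with 0.01 among the controls and -0.01 under Al.

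**Figure D1:**
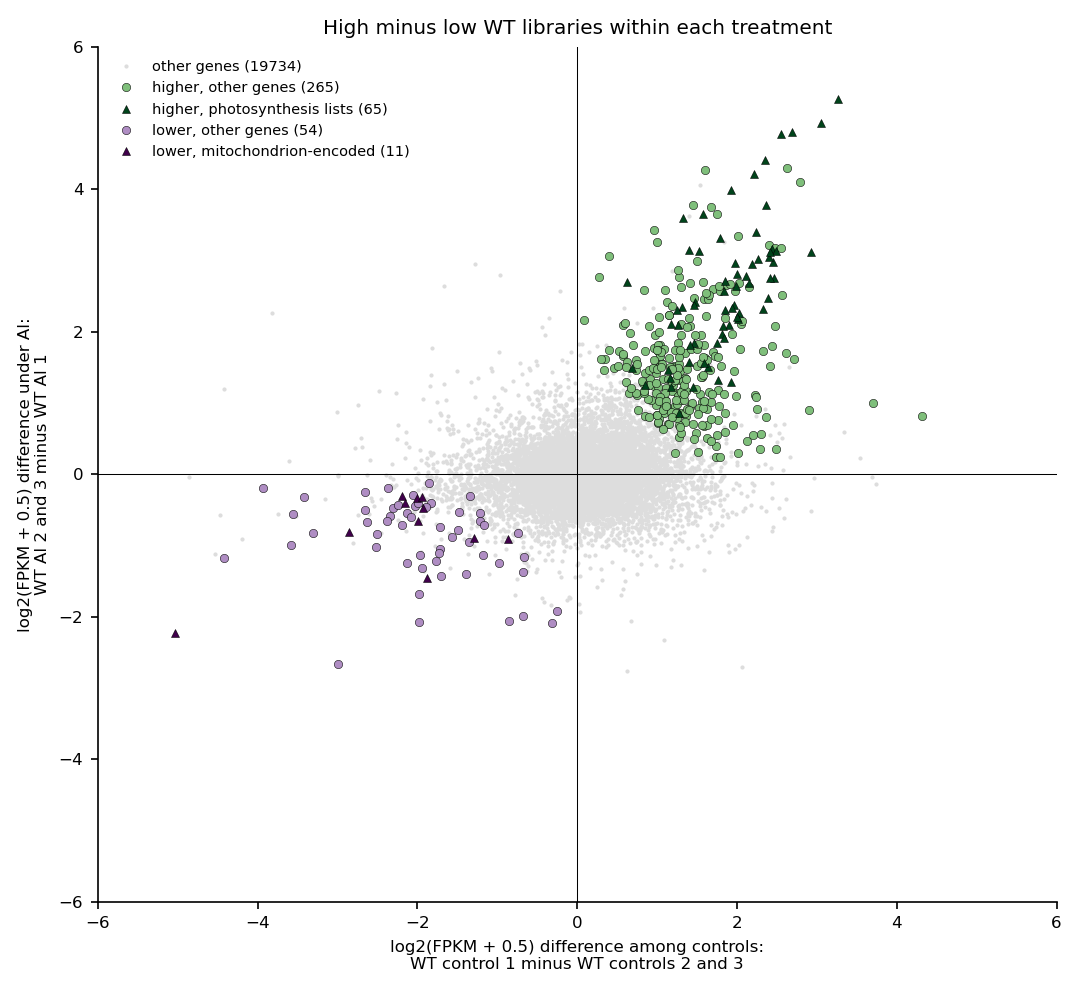
Difference between high and low WT libraries in log2(FPKM + 0.5) for each gene passing the filter, among the controls (horizontal axis, WT control 1 minus WT control 2 and 3) and under Al (vertical axis, WT Al 2 and 3 minus WT Al 1). Each point is a gene. The 65 higher genes of the photosynthesis lists (dark green triangles) lie in the upper right, and the 11 lower mitochondrion-encoded genes (dark purple triangles) lie to the left of and below 0.

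FPKM values of all 25872 genes came out as whole fragments (within 0.01 fragment), and library totals ran from 16162941 to 17136217 fragments. Libraries WT control 1 and OX control 1 stood apart from the other 10 in several gene groups unrelated to photosynthesis. Genes known to be induced by Al had a mean log2 level of 4.79 in WT control 1 and 4.85 in OX control 1, against 5.82 to 6.67 in the others. In bulk tissue, fewer cells of a type and less RNA per cell cannot be told apart.

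Genes for the light reactions made up the most uniform group. All 49 measured members of the photosystem and light-harvesting list were higher in the high libraries by their means, 46 without overlap, and 39 met the size requirement, against 1.64% of all genes, although this list is what the division was made from. Their summed level was 1163 FPKM in WT control 1, 1558 FPKM in WT Al 2 and 1320 FPKM in WT Al 3, against 459, 349 and 380 FPKM in WT control 2, WT control 3 and WT Al 1. The OX libraries summed to 520, 630 and 526 FPKM under Al and 372, 455 and 431 FPKM without Al, so none reached a high WT library.

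The light-harvesting proteins, which bind most of the chlorophyll and feed energy to the reaction centres, differed most, with a median of 2.54 over 16 genes. *LHCA2*, an antenna protein of photosystem I, had 27.1, 46.0 and 44.4 FPKM in WT control 1, WT Al 2 and WT Al 3, against 6.57, 3.58 and 2.83 FPKM in WT control 2, WT control 3 and WT Al 1. *LHCB1.3*, an antenna protein of photosystem II, had 84.6, 177 and 61.1 FPKM in the same high libraries, against 12.6, 12.8 and 3.24 FPKM in the low ones. The *LHCB1* genes are near-identical copies, so how reads were shared among them is uncertain. Photosystem I subunits followed with a median difference of 2.01 over 11 genes and photosystem II subunits with 2.16 over 10, all 21 of them higher. *PSBR*, a subunit of the oxygen-evolving side of photosystem II, was among the most abundant, at 146, 132 and 163 FPKM in WT control 1, WT Al 2 and WT Al 3, against 50.1, 25.6 and 31.9 FPKM in WT control 2, WT control 3 and WT Al 1. The 3 subunits of the plastid ATP synthase differed by 0.87 to 1.1, the 9 electron carriers and other thylakoid proteins by a median of 0.88, and *LHCB4.1* by 0.82.

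**Figure D2:**
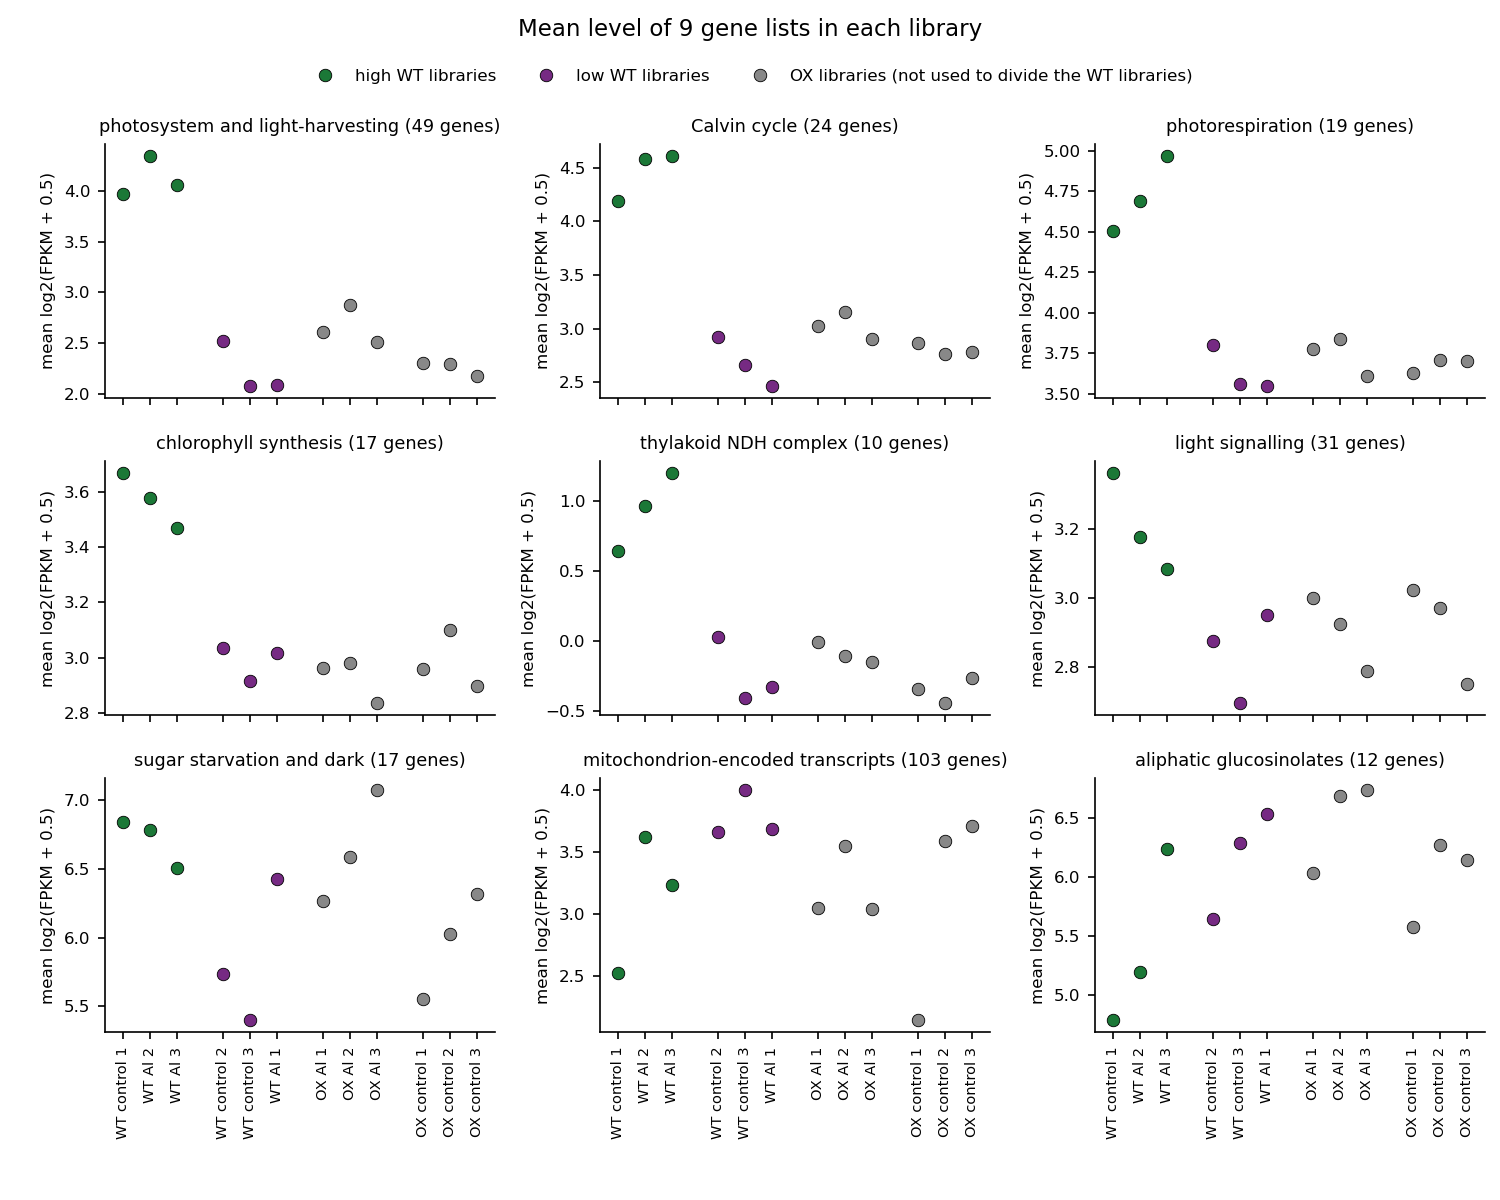
Mean log2(FPKM + 0.5) of 9 gene lists in each of the 12 libraries, each panel with its own vertical scale; green points are the high WT libraries, purple points the low WT libraries and grey points the OX libraries. In the 5 photosynthesis panels the high libraries stand above the low ones and above OX, while in the sugar starvation panel OX Al 3 lies above every WT library, and in the mitochondrial panel WT control 1 and OX control 1 lie lowest.

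Carbon fixation showed the largest single differences, with a median of 1.96 over the 24 Calvin cycle genes, 15 of them higher. The small subunit of Rubisco, the enzyme that fixes carbon dioxide, was encoded by the gene with the largest difference of all, *RBCS3B*. It had 27.3, 59.4 and 44.4 FPKM in WT control 1, WT Al 2 and WT Al 3, against 2.57, 2.21 and 0.845 FPKM in WT control 2, WT control 3 and WT Al 1, a difference of 4.24 (3.27 among the controls and 5.27 under Al). *RBCS1A* had 77.5, 144 and 104 FPKM in the high libraries, against 11.4, 6.86 and 3.52 FPKM in the low ones. The OX libraries held 14.4, 21.7 and 10.4 FPKM of *RBCS1A* under Al and 12.3, 8.20 and 7.23 FPKM without Al, between the levels of the low and the high WT libraries or within the low range. The 4 *RBCS* genes share sequence, so their reads are uncertain between copies, but summed they gave 126, 254 and 178 FPKM in WT control 1, WT Al 2 and WT Al 3, against 18.5, 12.4 and 5.83 FPKM in WT control 2, WT control 3 and WT Al 1.

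*PRK*, phosphoribulokinase, which regenerates the acceptor of carbon dioxide, differed by 3.22, with 5.17, 9.47 and 13.1 FPKM in WT control 1, WT Al 2 and WT Al 3, against 0.991, 0.508 and 0.126 FPKM in WT control 2, WT control 3 and WT Al 1. *RCA*, the Rubisco activase, differed by 1.97, and *SBPASE*, a regulatory phosphatase of the cycle, by 2.43. Other members of the cycle were abundant in all 6 libraries and overlapped. *TKL1*, a transketolase, had 91.7, 72.7 and 83.4 FPKM in the high libraries, against 79.0, 79.2 and 67.7 FPKM in the low ones, and *FBA3*, a plastid aldolase, differed by -0.09.

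Light-regulated photosynthesis genes often carry an I-box (GATAAG) or a G-box (CACGTG) before the transcription start, so the 250 bases upstream of each annotated start were searched on both strands. Of the 10 higher genes named by rule, *RBCS2B* held 3 I-boxes and 1 G-box, *PRK* held 1 G-box, and neither motif was found in the windows of the other 8. Each window ends at the annotated boundary of the gene, which need not be the start used in these roots. Motifs inside the annotated gene or further upstream were not searched, so a window without a match does not show that a promoter lacks the motif. The windows of *RBCS2B* (chr5:15382072-15382321, minus strand) and *PRK* (chr1:11531949-11532198, plus strand) are printed because they are the only ones among these 10 with a match. Both are from RefSeq, build TAIR10.1, 5′ to 3′ along the gene, with each I-box (CTTATC where it is on the other strand) and G-box in capitals.
RBCS2B: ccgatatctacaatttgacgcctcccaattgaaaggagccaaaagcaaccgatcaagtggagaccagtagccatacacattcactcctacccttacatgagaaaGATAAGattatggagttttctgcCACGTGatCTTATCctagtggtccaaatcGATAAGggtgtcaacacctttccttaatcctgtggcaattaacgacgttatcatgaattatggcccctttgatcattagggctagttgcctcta
PRK: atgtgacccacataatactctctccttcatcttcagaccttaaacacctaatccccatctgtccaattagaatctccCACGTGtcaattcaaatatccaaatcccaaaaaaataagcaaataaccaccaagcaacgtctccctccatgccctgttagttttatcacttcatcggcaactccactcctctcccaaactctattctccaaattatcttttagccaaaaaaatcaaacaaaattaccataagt
Over the 325 higher genes with a window, 21.8% held an I-box and 10.2% a G-box, against 12.2% and 7.17% of the 19974 windows of all genes passing the filter. In the 49 windows of the photosystem list the shares were 26.5% and 16.3%, and in the 24 of the Calvin cycle list 16.7% and 16.7%. The 53 windows of lower genes gave 15.1% and 3.77%. The evening element (AAAATATCT), a motif of clock-controlled genes, was in 3.38% of the windows of higher genes, against 2.37% of all windows. A match is a run of letters and not a shown binding site.

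Photorespiration, which recovers the carbon lost when Rubisco takes up oxygen, followed in part, with 8 of 19 members higher and a median of 0.70. *GOX1*, a peroxisomal glycolate oxidase, had 6.63, 13.5 and 32.5 FPKM in WT control 1, WT Al 2 and WT Al 3, against 1.89, 0.983 and 0.850 FPKM in WT control 2, WT control 3 and WT Al 1. *HPR1*, hydroxypyruvate reductase, differed by 1.69, *GLU1*, the ferredoxin-dependent glutamate synthase of leaves, by 2.36, and *CAT2*, a catalase already at 116 FPKM or more in all 6 libraries, by 0.29.

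Pigment synthesis moved less than the proteins that bind the pigments. In the chlorophyll list 3 of 17 members were higher, with a median of 0.49. *PORB*, the light-dependent step that makes chlorophyllide, differed by 1.87, *CRD1*, a subunit of the cyclase before it, by 1.6, and *CHLP*, which makes the phytol tail, by 1.09. The genes at the entry of the pathway scarcely separated the libraries, as *HEMA1* differed by 0.26 and *HEMB1* by 0.06. None of the 12 carotenoid genes was higher, and their median was 0.13.

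Further parts of the thylakoid and stroma were found when families were listed after the data had been seen. Of 15 subunits of the thylakoid NDH complex, which cycles electrons around photosystem I, 10 passed the filter and 7 were higher. Since several members passed only through the high libraries, the median was 1.2 over these 10 and 0.77 over all 15, and leaving out WT control 1, WT Al 2 or WT Al 3 left 5 passing and 2 higher. *NdhO* had 2.74, 5.31 and 6.33 FPKM in WT control 1, WT Al 2 and WT Al 3, against 1, 0.367 and 0.291 FPKM in WT control 2, WT control 3 and WT Al 1. In the starch and sucrose list, *TPT*, the carrier that exports triose phosphate from the chloroplast, differed by 2.25. *THI1*, also chosen after its values were seen, makes the thiazole ring of thiamine in plastids and had 35.6, 46.5 and 49.0 FPKM in the high libraries, against 14.3, 8.93 and 7.79 FPKM in the low ones. Transcripts encoded by the plastid genome itself differed by a median of 0.46 over 38 genes, 4 of them higher, and by 0.23 over the 103 genes of the table without the filter. The 103 genes together summed to 58.5 to 84.0 FPKM in the high libraries, against 37.0 to 46.3 FPKM in the low ones. Leaving out WT Al 3 left 1 plastid gene higher.

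Regulators of chloroplast formation were offset by less than their targets. *GLK2*, a transcription factor that turns on antenna and chlorophyll genes, had 9.72, 6.53 and 6.19 FPKM in WT control 1, WT Al 2 and WT Al 3, against 4.46, 3.78 and 3.61 FPKM in WT control 2, WT control 3 and WT Al 1. Its relative *GLK1* had 0.851, 1.24 and 2.2 FPKM in the high libraries, against 0.507, 0.763 and 0.550 FPKM in the low ones, and neither gene overlapped between high and low. The plastid sigma factors *SIG2*, *SIG4* and *SIG6* lay above without overlap by 0.28 to 0.77, while *SIG1*, *SIG3*, *SIG5* and *GUN1* overlapped. *CGA1*, a GATA factor of greening, was under the filter, with 2, 6 and 3 fragments in WT control 1, WT Al 2 and WT Al 3, against 0 in all 3 low libraries.

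Shoot tissue was examined next through genes that roots lack or hardly use. Requiring at least 5 fragments in every high library and 0 in every low library left 8 of the 25872 genes, and no gene met the mirror requirement. The 8 included *STM*, the homeobox gene that maintains the shoot meristem, and *YAB1* (annotated as *AFO*), which marks the lower side of leaves. *STM* had 7, 26 and 9 fragments in WT control 1, WT Al 2 and WT Al 3, against 0 in WT control 2, WT control 3 and WT Al 1. *YAB1* had 10, 24 and 12 fragments in the high libraries, against 0 in the low ones. In OX, *STM* had 1 fragment in OX Al 2 and 0 in the other 5 libraries, and *YAB1* had 1 to 5 fragments in each. A count of 0 allows up to 3 fragments of the library, counting error only. The other 6 genes were *GPT2*, a glucose 6-phosphate carrier of plastids, *GASA6*, a gibberellin-regulated peptide, *MYB47*, a transcription factor, *CRK13*, a receptor-like kinase, *THI2.2*, a thionin, and AT5G44440.

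Other shoot regulators lay at the edge of detection, and some were at 0 in WT control 1 as well. *YAB5* had 2, 6 and 10 fragments in WT control 1, WT Al 2 and WT Al 3, against 0 in the low libraries, and *YAB2* had 0, 7 and 7 fragments, against 0 in the low libraries. *STOMAGEN*, a peptide gene of leaf mesophyll that promotes stomata, had 0, 6 and 8 fragments in the high libraries, against 0 in the low ones. *YAB3* and *ATML1*, an identity gene of the epidermis, were higher by 1.18 and 1.13. The myrosinase *TGG1*, abundant in guard cells and in idioblasts of leaf veins, had 2.83, 9.43 and 2.3 FPKM in WT control 1, WT Al 2 and WT Al 3, against 0.0309, 0.254 and 0.0629 FPKM in WT control 2, WT control 3 and WT Al 1, a difference of 2.89. *GER3*, a germin-like protein of the leaf apoplast, had 4.56, 13.3 and 6.26 FPKM in the high libraries, against 0.232, 0.238 and 0.0591 FPKM in the low ones.

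As whole lists the shoot markers separated the libraries less clearly. The stomatal and guard cell list, 20 genes in the table, summed to 15.5 to 26.4 FPKM in the high libraries, against 8.75 to 11.1 FPKM in the low ones and 7.23 to 10.8 FPKM in OX. The 24 leaf and shoot apex regulators summed to 112 to 135 FPKM in the high libraries, against 101 to 131 FPKM in the low ones, and *PHB*, *REV* and *PHV*, its 3 most abundant members, which roots use as well, overlapped between high and low. The 27 genes of the shoot cuticle summed to 391 to 575 FPKM in the high libraries, against 411 to 488 FPKM in the low ones. Of the defining shoot markers, *YAB1* and *FAMA*, the last regulator of guard cell formation, were at 0 in all low libraries, *FAMA* was at 0, 3 and 2 fragments in WT control 1, WT Al 2 and WT Al 3, and *CER1*, a wax synthesis gene, had 24, 24 and 29 fragments, against 12, 9 and 24 fragments in the low libraries. Seed storage genes, 13 in the table, summed to 1.05 to 9.27 FPKM in the high libraries, against 0.495 to 0.9 FPKM in the low ones and 0.721 to 2.19 FPKM in OX. Of these genes, 11, 4 and 8 had a fragment in WT control 1, WT Al 2 and WT Al 3. In WT control 2, WT control 3 and WT Al 1 the numbers were 4, 2 and 3, so WT Al 2 was close to the low libraries. The part of shoot or seed tissue in the higher photosynthesis transcripts was not tested.

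**Figure D3:**
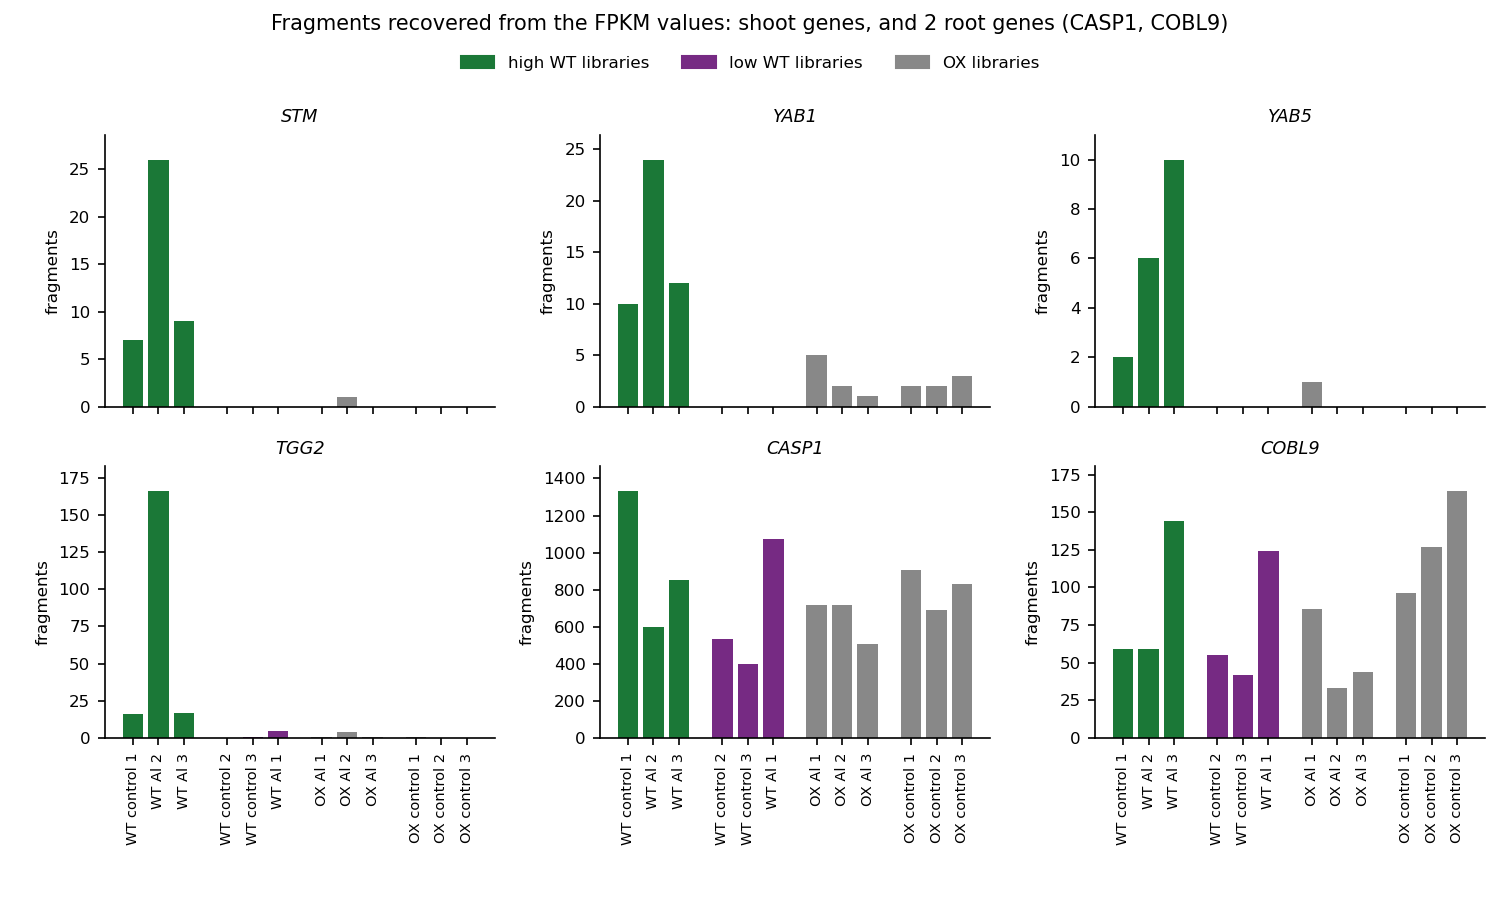
Fragments counted for 4 genes of shoot tissue (STM, YAB1, YAB5, TGG2) and for 2 genes of root tissue (CASP1 of the endodermis, COBL9 of root hairs), one bar per library, each panel with its own scale from 0. The shoot genes are at 0 in the low WT libraries except TGG2, and the root genes are present in all 12 libraries with high and low WT libraries overlapping.

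Root identity was present in every library. *CASP1*, which builds the Casparian strip, had 86.8, 39.4 and 56.2 FPKM in WT control 1, WT Al 2 and WT Al 3, against 34.6, 26.6 and 70.5 FPKM in WT control 2, WT control 3 and WT Al 1. *PYK10*, the main beta-glucosidase of root ER bodies, had 2376, 843 and 1439 FPKM in the high libraries, against 1687, 2236 and 1315 FPKM in the low ones. *COBL9*, of root hairs, and *SMB*, of the root cap, also overlapped between high and low libraries. No member of the root hair (21), endodermis (10), suberin (11), root meristem and cap (18), xylem (17), phloem (5) or cell division (30) lists was counted as higher or lower. Over all genes 1.64% were higher and 0.323% lower, so lists of this size would hold few calls in any case. Leaving out WT Al 2 gave 2 higher endodermis genes, 1 higher meristem and cap gene and 1 lower suberin gene. Leaving out WT Al 1 gave 2 higher meristem and cap genes, 1 root hair gene and 1 endodermis gene.

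Some zone lists shifted in opposite directions under the 2 treatments. The median of the endodermis list was 1.13 among the controls and -0.21 under Al, and that of the root hair list 0.54 and -0.33. The suberin list had a median of -1.20 among the controls and -0.06 under Al, since WT control 1 was at a mean log2 level of 3.15, against 4.26 to 4.93 in the other 11 libraries, and without WT control 1 its median over the remaining libraries was 0.06, against -0.42 with it. Without WT control 3 the median of the root hair list was -0.08, against 0.21 with it. *WOX5*, which marks the quiescent centre of the root tip, lay below without overlap, by 0.61, and *PLT1* and *BBM*, regulators of the root stem cell zone, lay above without overlap by 0.39 and 0.37.

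Light signalling genes were offset slightly, with a median of 0.25 over 31 genes (0.48 among the controls and 0.05 under Al) and 4 genes higher, 2 without WT control 3. *PIF5*, a growth-promoting factor that phytochrome degrades in light, had 2.74, 4.18 and 2.86 FPKM in WT control 1, WT Al 2 and WT Al 3, against 1.97, 0.539 and 0.697 FPKM in WT control 2, WT control 3 and WT Al 1. *PHOT1*, a blue-light receptor, differed by 1.23, *HFR1*, a partner of the PIF factors, by 1.21, and *PIF4* by 1.2. The central positive regulator of greening, *HY5*, overlapped, with 17.3, 10.9 and 8.96 FPKM in the high libraries, against 9.27, 10.7 and 13.1 FPKM in the low ones. *ELIP1* and *ELIP2*, proteins induced by strong light, overlapped and differed by -0.48 and -0.25. The light-induced flavonoid genes did not follow either, with a median of -0.21 over 8 genes and *CHS*, chalcone synthase, at 13.4, 10.9 and 22.7 FPKM in the high libraries, against 8.93, 36.0 and 16.4 FPKM in the low ones.

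The circadian clock list scarcely separated the libraries. None of its 24 genes was higher or lower, the median was 0.08, and *BOA* alone had no overlap, with a difference of 0.30. *CCA1*, which peaks at dawn, had 13.0, 9.79 and 4.48 FPKM in WT control 1, WT Al 2 and WT Al 3, against 6.47, 7.56 and 5.88 FPKM in WT control 2, WT control 3 and WT Al 1. *TOC1*, which peaks in the evening, had 87.4, 81.1 and 80.5 FPKM in the high libraries, against 67.4, 73.1 and 82.4 FPKM in the low ones.

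Genes of sugar starvation and darkness lay above by their means, but only 6 of 17 without overlap, and here the low library WT Al 1 was close to the high ones. All 17 members had positive differences, with a median of 0.64, but the median was 0.84 among the controls and 0.20 under Al, and 2 members were counted as higher (6 without WT Al 1, 1 without WT control 1). *SEN1*, a dark-inducible gene, had 123, 104 and 152 FPKM in WT control 1, WT Al 2 and WT Al 3, against 45.3, 25 and 83 FPKM in WT control 2, WT control 3 and WT Al 1. *ASN1*, a dark-inducible asparagine synthetase, had 140, 109 and 162 FPKM in the high libraries, against 26.3, 5.03 and 113 FPKM in the low ones. The vacuolar sugar carrier *SWEET2*, chosen after its values were seen, had 72.3, 73.4 and 48.2 FPKM in the high libraries, against 20.09, 15.4 and 48.0 FPKM in the low ones, so WT Al 1 nearly equalled WT Al 3.

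In some OX libraries these genes reached the levels of the high WT libraries, while the photosystem and Calvin cycle lists stayed below them. *SEN1* had 79.0, 96.8 and 247 FPKM in OX Al and 35.2, 42.3 and 96.9 FPKM in OX control, a log2 fold change of 1.23 (SE 0.59, limma adjusted p = 0.399) that did not pass the test. More widely, 201 of the 330 higher genes had all 6 OX libraries below the lowest high WT library. That was so for 63 of the 65 higher genes in the photosystem, Calvin cycle, photorespiration and chlorophyll lists and for 138 of the other 265. It held for 154 of the 204 genes that differed by at least 1 under both treatments and for 15 of the 66 that did so among the controls only. The sets also differ in the size of the WT difference. Its median was 2.25 in the photosynthesis lists and 1.34 in the other genes. It was 1.70 for both treatments and 1.16 for the controls only. A wider WT gap is harder to reach, so these counts do not compare how OX behaved between the sets. Single OX libraries reached the lowest high library in 58, 58 and 69 of the 330 genes in OX Al 1, 2 and 3, and in 28, 25 and 27 genes in OX control 1, 2 and 3.

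**Figure D4:**
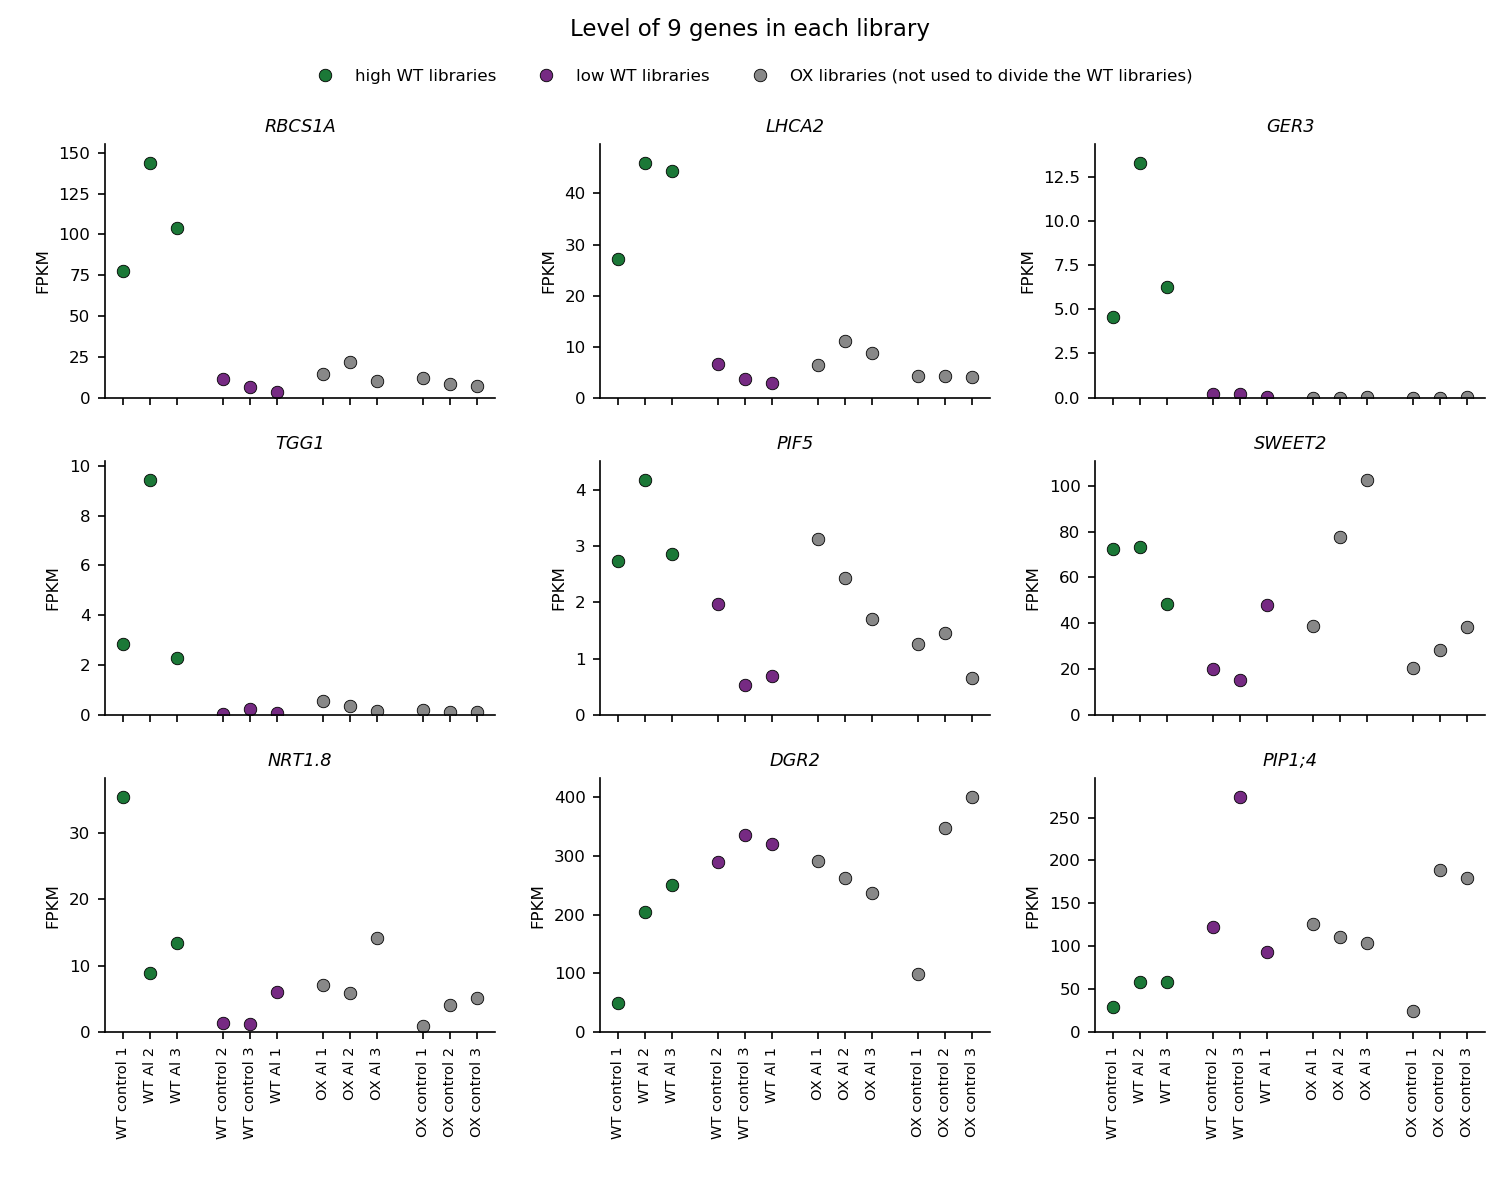
FPKM of 9 genes in each of the 12 libraries, on vertical scales from 0; green points are the high WT libraries, purple points the low WT libraries and grey points the OX libraries. RBCS1A, LHCA2, GER3 and TGG1 are low in every OX library, SWEET2 reaches its highest value in OX Al 3, and DGR2 and PIP1;4 are lowest in WT control 1 and OX control 1.

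Nutrient transporters gave 1 higher and 1 lower gene of 23, against 1.64% higher and 0.323% lower over all genes. The lower count ran from 0 without WT control 3 to 5 without WT Al 1. *NRT1.8*, which takes nitrate back out of the xylem, had 35.4, 8.84 and 13.4 FPKM in WT control 1, WT Al 2 and WT Al 3, against 1.39, 1.21 and 5.97 FPKM in WT control 2, WT control 3 and WT Al 1, a difference of 4.32 among the controls and 0.82 under Al. *PHT1;4*, a phosphate uptake carrier, was lower by 1.14, with 57.1, 45.2 and 42.0 FPKM in the high libraries, against 102, 162 and 71.8 FPKM in the low ones. *HAK5*, the high-affinity potassium carrier, overlapped, as it had 11.5 FPKM in WT control 1 alone and 139 to 380 FPKM in the other 5 WT libraries.

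Among small RNA genes, examined after their values were seen, precursors of miR156, which holds seedlings in the juvenile phase by repressing SPL factors, were higher in 2 of the 4 loci that passed the filter, and in 1 without WT control 3 or WT Al 1. The median difference was 0.72 over these 4 and 0.33 over all 5 in the table. In OX the mean log2 level of the 4 loci ran from 2.77 to 3.73, so it reached that of the high WT libraries, 3.59 to 3.68. *MIR156a* (AT2G25095) had 12, 9.67 and 35.3 FPKM in WT control 1, WT Al 2 and WT Al 3, against 3.81, 3.41 and 0.484 FPKM in WT control 2, WT control 3 and WT Al 1. *MIR156c* (AT4G31877) had 46.4, 54.3 and 52.1 FPKM in the high libraries, against 40.5, 16.2 and 19.5 FPKM in the low ones. These values count fragments on the precursor loci and do not measure the mature RNA. Both loci encode the same mature sequence, and it is shown with the one from *MIR775*, a precursor among the lower genes, to set their different seeds side by side. The seed, bases 2 to 8, is in capitals, and the sequences are from RefSeq, TAIR10.1, at chr2:10676534-10676553 and chr4:15415491-15415510 on the minus strand and chr1:29422546-29422565 on the plus strand.
MIR156a 5p: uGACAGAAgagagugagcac
MIR156c 5p: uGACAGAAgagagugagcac
MIR775 3p: uUCGAUGUcuagcagugcca
*MIR775* had 0.479, 0.484 and 0.484 FPKM in the high libraries, 1 fragment in each, against 4.28, 2.44 and 1.94 FPKM in the low ones.

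Beyond these lists, most higher genes were outside any of them, as 78 of the 330 belonged to a list drawn up by hand, and 310 of the 330 encode proteins. Many were at low levels, with a mean under 5 FPKM in the high libraries for 172 of the 330. The largest difference outside the photosynthesis lists was that of *ECS1*, a gene of unclear function, at 3.39, 27.8 and 2.95 FPKM in WT control 1, WT Al 2 and WT Al 3, against 0.202, 0.0691 and 0 FPKM in WT control 2, WT control 3 and WT Al 1. Among genes of wall growth, all chosen after their values were seen, *XTH7* differed by 2.47 and the expansin *EXPA8* by 1.28, while the families as a whole had medians of 0.26 over 23 *XTH* genes and 0.46 over 21 expansins. Likewise listed after the data were seen, the clustered *CYP71B* genes, cytochromes P450 whose copies share sequence, had 4 higher of 17 and a median of 0.32 (2 higher without WT Al 2 or WT control 3).

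The 3 high libraries were not alike in how their genes were raised. WT Al 2 was the highest WT library for 132 of the 330 genes, WT Al 3 for 136 and WT control 1 for 62. Light-harvesting genes were highest in WT Al 2 in 14 of 16 cases, and all 4 *RBCS* genes were highest there. Photorespiration genes were highest in WT Al 3 in 10 of 19 cases, as with *GOX1*, and chlorophyll synthesis genes in WT control 1 in 9 of 17 cases. *ECS1*, *TGG1* and *XTH7* were highest in WT Al 2 as well.

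**Figure D5:**
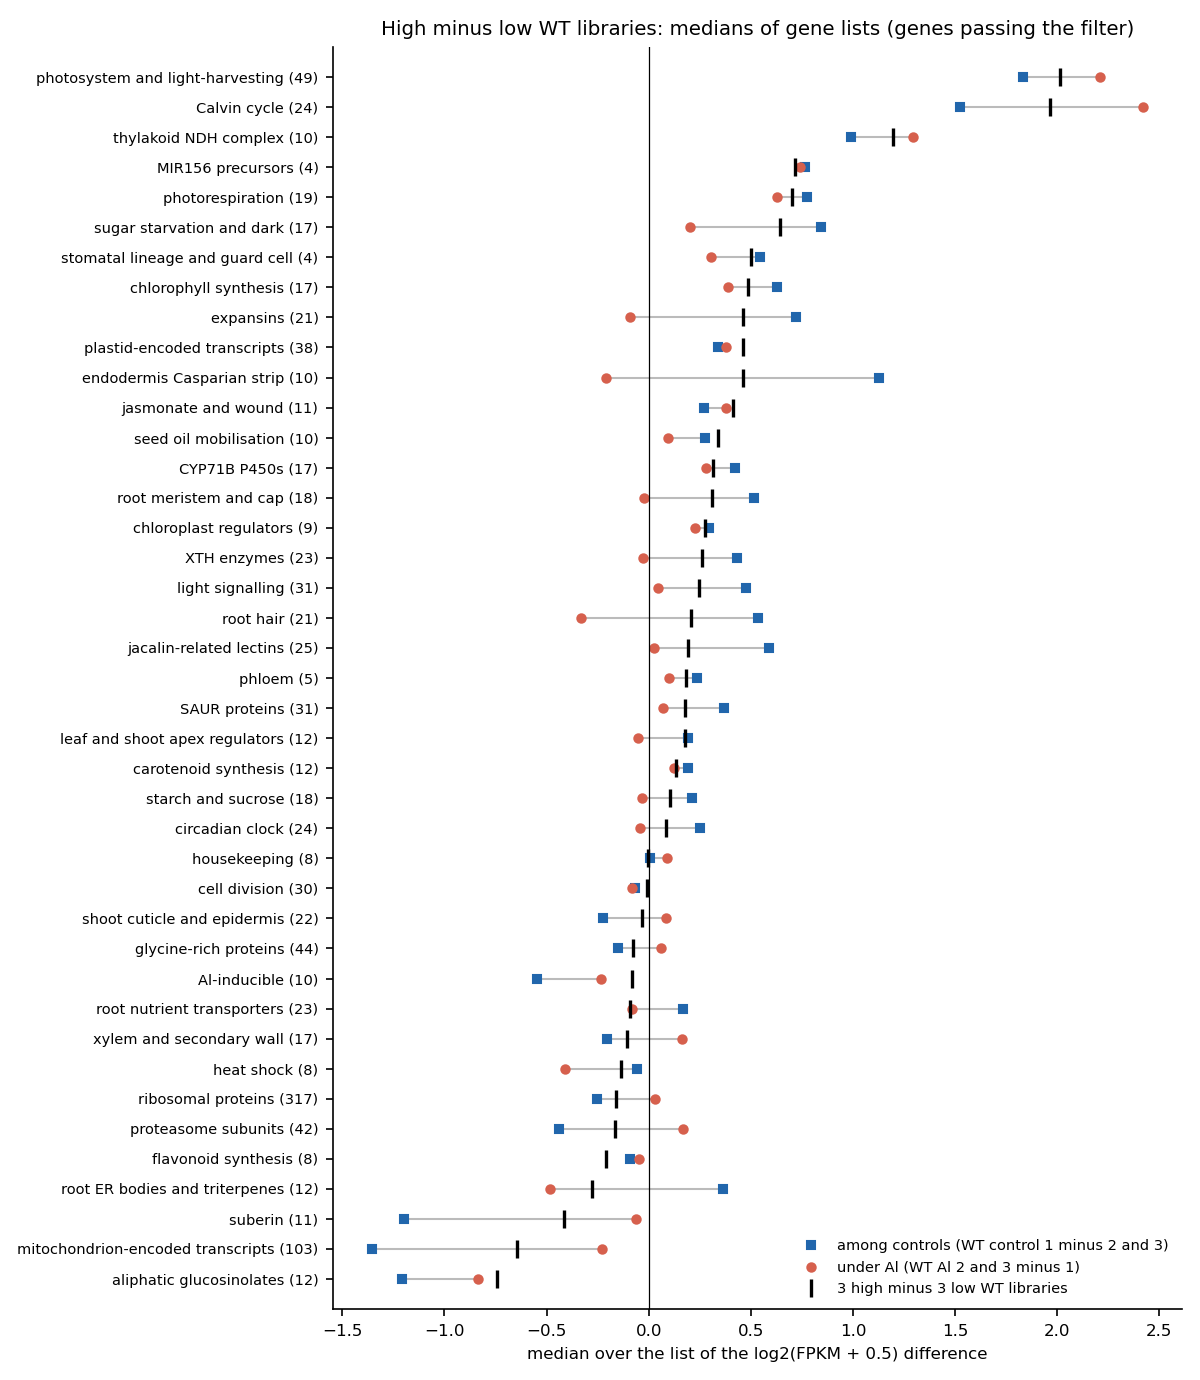
Median difference between high and low WT libraries in log2(FPKM + 0.5) for each gene list with its number of genes passing the filter, over all 6 libraries (black ticks), among the controls (blue squares) and under Al (red circles). Photosystem genes lie at 1.83 among the controls and 2.21 under Al and Calvin cycle genes at 1.52 and 2.42, most lists lie within 0.5 of 0, and suberin, endodermis and root hair genes shift under only 1 treatment or in opposite directions.

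Fewer genes were lower, and in most of them WT control 1 was the lowest WT library. Of the 65, WT control 1 was the lowest WT library for 47, OX control 1 was the lowest OX library for 41, and OX control 1 lay at or under the highest high WT library for 49. By definition the lowest WT library of a lower gene is 1 of the 3 high ones. How often these libraries are lowest over all genes was not counted, so these counts have no background to be set against. *DGR2*, a cell wall protein gene, had 49.1, 204 and 250 FPKM in WT control 1, WT Al 2 and WT Al 3, against 290, 335 and 320 FPKM in WT control 2, WT control 3 and WT Al 1, and 98.4 FPKM in OX control 1. *PIP1;4*, a plasma membrane aquaporin, had 29.2, 58.6 and 58.0 FPKM in the high libraries, against 123, 274 and 92.8 FPKM in the low ones, and 25 FPKM in OX control 1. Both genes were chosen after their values were seen. The 10 lower genes named by rule were drawn from 11 that differed by at least 1 under both treatments with a mean of at least 2 FPKM in the low libraries, while *DGR2* and *PIP1;4* differed by less than 1 under Al. They included 3 snoRNA loci, *MIR775*, a tRNA gene and 2 mitochondrial loci, most of them with few fragments. One of them, AT3G04355, is annotated as antisense, and its reads cannot be told apart from those of the gene opposite unless strand was used, which the sources do not state.

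Transcripts encoded by the mitochondrial genome, listed after the data were seen, had a median difference of -0.64 over 103 genes, of which 11 were lower and 3 had a positive difference. Leaving out WT Al 2, WT Al 1 or WT control 2 gave 41, 22 or 19 lower genes, leaving out WT control 1 or WT control 3 gave 6, and the median ran from -0.96 without WT Al 2 to -0.35 without WT control 1. Their mean log2 level was 2.52 in WT control 1, 3.62 in WT Al 2 and 3.23 in WT Al 3, against 3.66, 4.0 and 3.69 in WT control 2, WT control 3 and WT Al 1, and 2.14 in OX control 1. The median was -1.36 among the controls and -0.23 under Al, so the difference was mostly that of WT control 1. Reads of these genes are shared with the copy of the mitochondrial genome on chromosome 2, which makes the assignment uncertain, and the part of library preparation in these levels was not tested.

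Aliphatic glucosinolate synthesis, which makes sulfur-rich defence compounds from methionine, had a median of -0.74 over 12 genes, with no positive member (-1.21 among the controls and -0.84 under Al). The median was -0.43 without WT control 1 and -1.14 without WT Al 3, and the count of lower members was 9 without WT Al 3, 4 without WT control 2 and 0 otherwise. The high and low libraries overlapped for every one of its 4 most abundant genes. *BCAT4*, the first step of methionine chain elongation, had 56.3, 113 and 215 FPKM in WT control 1, WT Al 2 and WT Al 3, against 139, 247 and 293 FPKM in WT control 2, WT control 3 and WT Al 1. Since Al libraries were above controls within each side, the values within a treatment separate more clearly than those over all 6 libraries.

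Whether these genes also differed by the labelled treatment was tested with limma over all 12 libraries and 20773 genes, where a call needed a change of 1 log2 unit or more and an adjusted p up to 0.05. In WT, where 2 of 3 Al libraries and 1 of 3 controls are high libraries, the contrast is not independent of the division. There, 34 genes (0.164%) rose and 35 (0.168%) fell under Al over the whole table, and none of the 330 higher or 65 lower genes was among them. These genes were chosen because libraries of the same WT group lay apart, and that spread is the error of the test. Few or no calls among them therefore cannot show whether Al changed them in WT. The median log2 fold change of the 330 higher genes was 0.62, against 0.01 over all genes tested. For *RBCS1A* it was 1.05 (SE 1.19, limma adjusted p = 0.774).

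In OX, whose libraries were not divided, 59 genes (0.284%) rose and 120 (0.578%) fell under Al, and again none of the 330 or of the 65 was among them. The spread of each gene was fitted over all 12 libraries, so the WT spread that chose these genes also entered their tests in OX. Few or no calls among them therefore cannot show whether Al changed them in OX. The higher genes had a median log2 fold change of 0.35 in OX, with 266 of 330 positive, against -0.01 over all genes tested, and the photosystem list had a median of 0.41 with 42 of 49 positive. At an unadjusted p under 0.05, limma gave 21 of the 330 in WT and 13 in OX, against 2594 and 2844 of the 20773 genes tested. *LHCA2* had a log2 fold change of 0.96 in OX (SE 0.91, limma adjusted p = 0.717). The test of the difference between the 2 genotypes in their response to Al gave 0 genes at the adjusted threshold and 1035 at an unadjusted p under 0.05 over the whole table, 4 of them among the 330 higher genes. Leaving out 1 library moved the whole-table counts between 0 and 78 in WT (0 without WT Al 1) and between 3 and 486 in OX (3 without OX Al 2 and 486 without OX Al 1).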

How the data were processed

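Root libraries of WT and OX *Arabidopsis* were sequenced as paired reads. The authors aligned them to TAIR10 with HISAT2, counted fragments per gene with HTSeq (0.6.0 in the submitters' processing notes) and deposited FPKM values. Strandedness is not given in the sources used here.

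FPKM were converted to log2(FPKM + 0.5). Genes with at least 0.5 FPKM in 3 of the 6 WT libraries were kept for the division. Fragments were recovered from the FPKM steps, where 100% of genes gave whole fragments (tolerance 0.01). A count of 0 was taken to allow up to 3 fragments, counting error only. The members, the division and the gene lists were chosen with earlier results of these data known, and the gene families (from NDH subunits to *MIR156* precursors) were listed after the data were seen. Genes named were the 10 with the largest difference in each direction among those without overlap, with a difference of at least 1 under both treatments and a mean of at least 2 FPKM in the libraries where they were higher, the 4 most abundant of each list with those that separated by at least 1, and all regulators, and others are marked in the text.

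The labelled groups were compared with limma 3.58.1 (R 4.3.3) over all 12 libraries on genes with at least 0.5 FPKM in 3 libraries, with Benjamini-Hochberg adjustment. A call needed a change of 1 log2 unit or more and an adjusted p up to 0.05. The labels do not say that replicates are separate cultures, so p-values measure only the spread between these libraries. Gene coordinates and sequences came from RefSeq TAIR10.1, in which 25579 of 25872 gene IDs matched. Alternatives were other pseudocounts, filters, scalings, a difference weighted by treatment, each library left out and a replicate block. In the alternative weighted by treatment, the counts of higher and lower genes required a difference of at least 1 under both treatments. Scripts were tested on simulated data.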

Additional observations from a re-analysis of the deposited data

How the results depend on the processing

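None of the 10 higher and 10 lower genes named by rule changed direction under any alternative run. They were chosen for no overlap and a difference of at least 1 under both treatments, so a change was hardly possible. The other genes named in the text were not followed in this way. Of 574 list medians under alternatives, 27, in 13 lists, had the opposite sign. They were those of suberin (-0.42 against 0.06 without WT control 1), jasmonate (0.41 against -0.14 without WT Al 3), root ER bodies (-0.28 against 0.13 without WT Al 2 and 0.03 without WT control 3), root hair (0.21 against -0.08 without WT control 3), jacalins (0.19 against -0.04 without WT control 1), leaf and shoot apex (0.18 against -0.04 without WT Al 3), nutrient transporters (-0.09 against 0.10 with equal weights and without WT control 3) and 6 lists whose medians lay within 0.14 of 0. No photosynthesis list was among them. The 330 higher genes became 208 when a difference of at least 1 was required within both treatments in place of a mean difference of at least 1. Of these, 204 were shared, the same 204 genes counted above as differing in both. The count was 302 to 633 when 1 library was left out, the 633 without WT Al 1. The 65 lower genes became 16 under the same stricter rule and 99 with a pseudocount of 0.1. They became 51 to 169 when 1 library was left out, with 169 without WT Al 2, 160 without WT Al 1, 111 without WT Al 3 and 101 without WT control 2. Of those list medians, 538 moved by less than the spread among the 3 high and among the 3 low libraries, and 36 moved by more. That spread mixes treated and untreated libraries, so it is not a spread of replicates. Of the values of the genes named by rule, 254 stayed and 17 moved.

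The limma calls rested on single libraries. The WT Al against control count of 69 became 38 without a filter and 0 to 78 when 1 library was left out, with 0 without WT Al 1, 2 without WT Al 2, 29 without WT Al 3 and 1 without WT control 3. The OX Al against control count of 179 became 40 when only those groups were fitted and 3 to 486 when 1 library was left out, with 486 without OX Al 1, 3 without OX Al 2, 12 without OX Al 3, 45 without OX control 1, 15 without OX control 2 and 31 without OX control 3. The interaction count of 0 became 1 without a filter and was 0 in every fit that left out a library. Where an arm kept 2 libraries, the spread was pooled over groups. The causes were not tested.

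With the replicate number as a block the counts were 85 in WT, 213 in OX and 0 for the interaction. Over the groups, the deviations from group means shared by equal numbers gave correlations of -0.247 to 0.286. Libraries with different numbers gave -0.274 to 0.263, so these ranges cannot decide whether the numbers pair the samples.

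Differences between high and low libraries carry no error from independent samples, since the same 6 libraries chose the division. Genes with few fragments, such as the lower small RNA loci and the shoot regulators, are limited by depth.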
